A study of Homo sapiens with 9 samples.

Results

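The genes described here are those of the YAP-TEAD pathway and its targets: YAP1, WWTR1, TEAD1, LATS2, CCN1, CCN2, ANKRD1, AMOTL2 and AJUBA. They were chosen by gene symbol, every probe annotated with one of these symbols being taken, which gave 9 of 18852 named genes and 13 of 48803 probes. The RNA came from MCF10A, a human mammary epithelial line that is immortal but not tumorigenic, and was read on Illumina bead arrays. A lentivirus had delivered either a scramble control or 1 of 2 hairpins that target RND1, and puromycin had then removed uninfected cells in all groups. There were 3 groups of 3 arrays: scramble, sh-34 and sh-35. Only 1 cell line was used. Whether same-group samples came from separate cultures is not stated, and the p-values therefore cover the spread among these arrays alone, which could be technical.

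YAP1 and WWTR1 (which encodes TAZ) are transcriptional co-activators that bind DNA through TEAD proteins such as TEAD1. In the Hippo pathway the kinases encoded by STK3 and STK4 activate LATS1 and LATS2, which phosphorylate YAP and TAZ and keep them out of the nucleus, while cell contact, polarity and actin tension all feed into this step. In mammary epithelial cells YAP and TAZ are known for linking cell shape and density to growth. CCN1, CCN2 and ANKRD1 are their most widely used target genes, and LATS2, AMOTL2 and AJUBA encode regulators of the pathway that are themselves reported as targets.

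TEAD proteins bind a short element, and stretches of promoter are shown for the genes, detected or not, that held it in the bases before a start site. RefSeq start sites on build GRCh38.p14 were found for 7 of the 9 genes. CCN1 and TEAD1 had no entry. The element searched was GGAATG, or CATTCC on the opposite strand, and capitals mark each match.
CCN2, chr6:131951373-131951622, minus strand, the 250 bases before the start: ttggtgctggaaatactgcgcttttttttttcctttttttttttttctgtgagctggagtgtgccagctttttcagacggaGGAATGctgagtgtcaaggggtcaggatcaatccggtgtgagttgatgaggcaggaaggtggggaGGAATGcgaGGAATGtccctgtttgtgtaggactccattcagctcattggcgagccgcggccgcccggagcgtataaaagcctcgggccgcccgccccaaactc
AJUBA, chr14:22976876-22976921, minus strand: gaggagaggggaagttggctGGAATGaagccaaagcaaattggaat
YAP1, chr11:102110265-102110310, plus strand: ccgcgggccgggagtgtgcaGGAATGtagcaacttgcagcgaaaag
ANKRD1, chr10:90921190-90921327, minus strand: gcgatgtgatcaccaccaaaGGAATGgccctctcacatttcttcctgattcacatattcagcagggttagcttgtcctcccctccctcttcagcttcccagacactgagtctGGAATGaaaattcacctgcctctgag
AMOTL2, chr3:134374491-134374536, minus strand: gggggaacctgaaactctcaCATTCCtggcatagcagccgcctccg
The CCN2 promoter held 3 matches, which begin 169, 104 and 95 bases before the start. Of 35116 promoter windows in the table, 11.89% held at least 1 match in the 250 bases before the start and 0.083% held 3 or more. The ANKRD1 window held 2 matches. The AJUBA match begins 59 bases before the downstream 1 of its 2 listed starts, the upstream start having none. The AMOTL2 match lies before 1 of its 2 listed starts. The LATS2 window held a match only after its start, and the WWTR1 windows held none. A match of this kind is a description of the letters and not a measured binding site.

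Of the 13 probes, 6 were above background often enough to be tested, that is with a detection p under 0.01 on at least 3 of the 9 arrays. They measured 5 genes: YAP1, LATS2, CCN1, CCN2 (with 2 probes) and AJUBA. The other 7 probes, for WWTR1, TEAD1, ANKRD1, AMOTL2 and AJUBA, were at or near background, so for WWTR1, TEAD1, ANKRD1 and AMOTL2 no change was measured. The WWTR1 probe read 89.0 to 134.0 in deposited signal and was above background on 2 arrays, 1 of sh-34 and 1 of sh-35. With probes detected on at least 1 array admitted, its log2 change was +0.40 with sh-34 (limma adjusted p = 0.119) and +0.13 with sh-35 (adjusted p = 0.621), and neither passed.

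The other dim probes gave no usable level. The ANKRD1 probe, for a cardiac ankyrin repeat protein, read 29.9 to 63.3 and had a lowest detection p of 0.0593. The AMOTL2 probe, for an angiomotin-like protein that holds YAP at junctions, read 51.0 to 90.6 and had a lowest detection p of 0.0250. Both were above background on 0 of 9 arrays, as were the TEAD1 probes, which read 50.4 to 92.5 and 32.2 to 51.0. The lowest signal called above background was 110.1 to 144.1, depending on the array. A second AJUBA probe was above background on 1 array (sh-34), and the last, made against another AJUBA transcript, on 0.

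**Figure D1:**
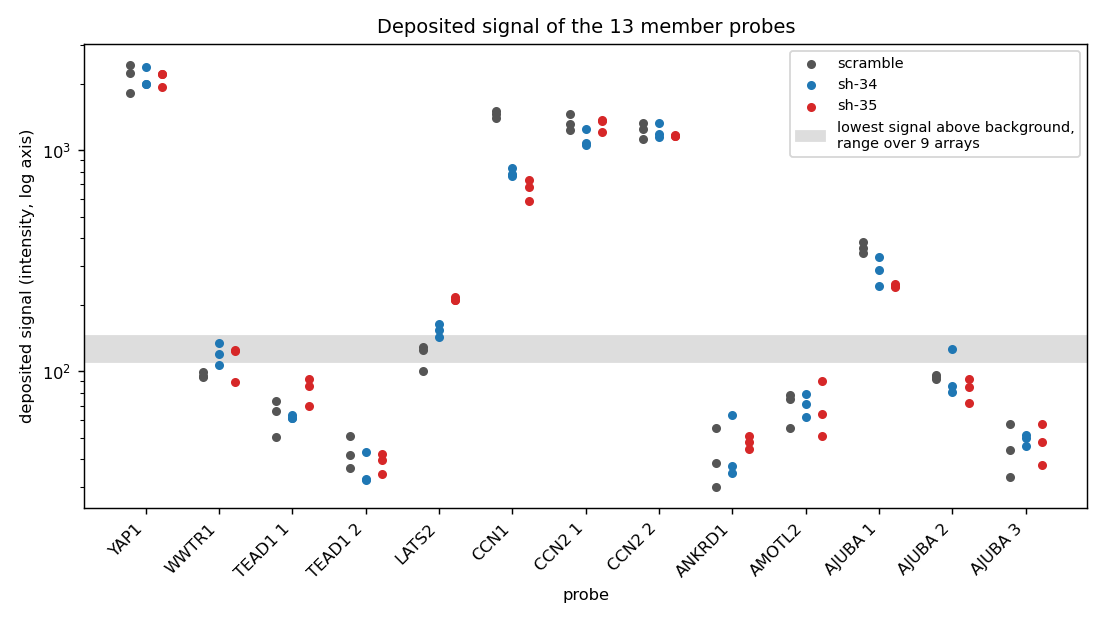
Deposited signal (intensity, log axis) of the 13 probes for the 9 genes, 1 point per array, by group; the grey band spans the lowest signals called above background on the 9 arrays. YAP1, CCN1, CCN2 and the first AJUBA probe lie above the band on every array, LATS2 crosses it, and the remaining probes lie in or below it. Heights of different probes are not comparable as levels.

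Facts of the whole series that bear on these values are few. Each array had 23.5% to 26.4% of its probes above background, and its median signal was 46.6 to 53.4. RND1, the target of both hairpins, was above background on 0 of 9 arrays, so its loss could not be checked. Of the markers listed for MCF10A identity, KRT5, KRT14, CDH3, LAMB3, ITGB4, CDH1, EPCAM, KRT8 and KRT18 were above background on all 9 arrays, and several of these changed in level. The log2 changes with sh-34 and sh-35 were −0.76 and −1.85 for CDH1, −0.51 and −1.88 for EPCAM, −1.84 and −1.08 for KRT14, −0.52 and −1.40 for CDH3, and −0.66 and −0.45 for LAMB3. The rest of these markers did not fall with both hairpins alike. ITGB4 read +0.41 and −0.33, KRT5 −0.42 and −0.04, and KRT8 −0.08 and −0.66. KRT18 read +0.40 and +0.10 and passed with neither hairpin. Of the luminal hormone receptor markers, ESR1 and PGR were above background on 0 arrays, GATA3 on 1 and FOXA1 on 3 scramble, 2 sh-34 and 0 sh-35 arrays. Of the 6 fibroblast markers, DCN was above background on 9 arrays, COL1A1 on 1, and COL1A2, COL3A1, LUM and PDGFRB on 0. The brightest DCN probe changed by −0.37 with sh-34 and +0.53 with sh-35 on the log2 scale, the sh-34 call being lost with several single arrays left out. A second DCN probe, also above background on 9 arrays, read −0.03 with sh-34 (limma adjusted p = 0.922) and +0.90 with sh-35 (adjusted p = 0.0023). Of the endothelial markers PECAM1 was above background on 3 arrays and VWF, CDH5 and KDR on 0, and of the leukocyte markers CD68 was on 9 arrays and PTPRC and CD3E on 0. CD68 fell by 0.54 with sh-34 and read +0.10 with sh-35. Their part in the results was not tested. In bulk RNA, fewer cells with a transcript and less transcript per cell cannot be told apart.

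Both hairpins were compared with scramble, which asks whether this pathway's transcripts differ when RND1 is targeted. CCN1 and AJUBA fell, LATS2 rose, and YAP1 and CCN2 did not pass the threshold. Of the 6 tested probes, 3 passed an adjusted p of 0.05 in limma with sh-34 and 3 with sh-35. Over all 12866 probes tested, 34.8% passed with sh-34 and 39.2% with sh-35, so a count of 3 in 6 is near the background. With sh-34, 17.5% of all probes were called higher and 17.3% lower, and with sh-35 19.1% and 20.1%, beside 1 of the 6 called higher and 2 lower with each hairpin. The 2 comparisons share the scramble arrays. LATS2 entered the test through the hairpin groups, in which it was brighter, and with only probes above background on all 9 arrays the count was 2 of 5.

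YAP1, the central co-activator, was read by 1 bright probe. Its deposited signals were 2425, 2236 and 1818 in scramble, 1998, 2379 and 1998 with sh-34, and 1927, 2212 and 2209 with sh-35. The 3 groups overlapped, and the normalized log2 levels were 10.98 ± 0.10 (SD, n = 3), 11.08 ± 0.19 and 11.05 ± 0.05. The YAP1 log2 change was +0.10 with sh-34 (SE 0.10; 95% interval −0.13 to 0.32; limma adjusted p = 0.498). With sh-35 it was +0.07 (SE 0.10; 95% interval −0.16 to 0.29; adjusted p = 0.629). Both signs turned with median scaling and with the series matrix values, and neither interval leaves out a small change in either direction.

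CCN1 encodes a secreted matricellular protein that binds integrins and is an immediate target of YAP and TAZ. Its deposited signals were 1392, 1503 and 1457 in scramble, 782, 765 and 830.1 with sh-34, and 587, 684 and 732 with sh-35. Every hairpin array lay below every scramble array, and every sh-35 array lay below every sh-34 array. CCN1 fell from 10.42 ± 0.19 (SD, n = 3) to 9.62 ± 0.04 with sh-34, which is 1.74-fold or −0.80 in log2 (SE 0.11; limma adjusted p = 0.00019). With sh-35 it fell to 9.30 ± 0.12, which is 2.18-fold or −1.12 in log2 (SE 0.11; adjusted p = 1.1e-05). CCN1 was the only one of the 9 genes among the 358 probes of the authors' deposited table, which gives it a ratio to scramble of 0.546 with sh-34 and 0.459 with sh-35.

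CCN2 encodes connective tissue growth factor, a paralog of CCN1 with which it is usually read out as a pair. Its brighter probe read 1319, 1464 and 1235 in scramble, 1248, 1051 and 1073 with sh-34, and 1213, 1355 and 1374 with sh-35. Its second probe read 1332, 1250.3 and 1119 in scramble, 1327, 1146 and 1185 with sh-34, and 1176, 1159 and 1163 with sh-35. On neither probe did a hairpin group separate fully from scramble in the normalized values. With sh-34 the log2 changes were −0.17 (SE 0.10; 95% interval −0.39 to 0.05; limma adjusted p = 0.212) and +0.07 (SE 0.08; interval −0.12 to 0.25; adjusted p = 0.564). With sh-35 they were +0.04 (SE 0.10; interval −0.18 to 0.26; adjusted p = 0.768) and −0.02 (SE 0.08; interval −0.21 to 0.17; adjusted p = 0.870). The lowest bound of these intervals, −0.39, lies above the CCN1 changes of −0.80 and −1.12.

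The departure of CCN1 from CCN2 was also set out within each array, as the log2 value of CCN1 less that of the brighter CCN2 probe. This difference was 0.0826, 0.0359 and 0.25 in scramble, −0.68, −0.46 and −0.37 with sh-34, and −1.11, −1.06 and −0.95 with sh-35. The 3 groups did not overlap. The mean difference changed by −0.63 with sh-34 and −1.17 with sh-35, and against the second CCN2 probe by −0.87 and −1.10. With 3 arrays against 3, a two-sided exact permutation test cannot give less than 0.1, and it gave 0.1 for each hairpin against scramble with either probe. Between the hairpins it gave 0.1 with the brighter CCN2 probe and 0.2 with the second. This contrast was chosen after the values were seen.

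**Figure D2:**
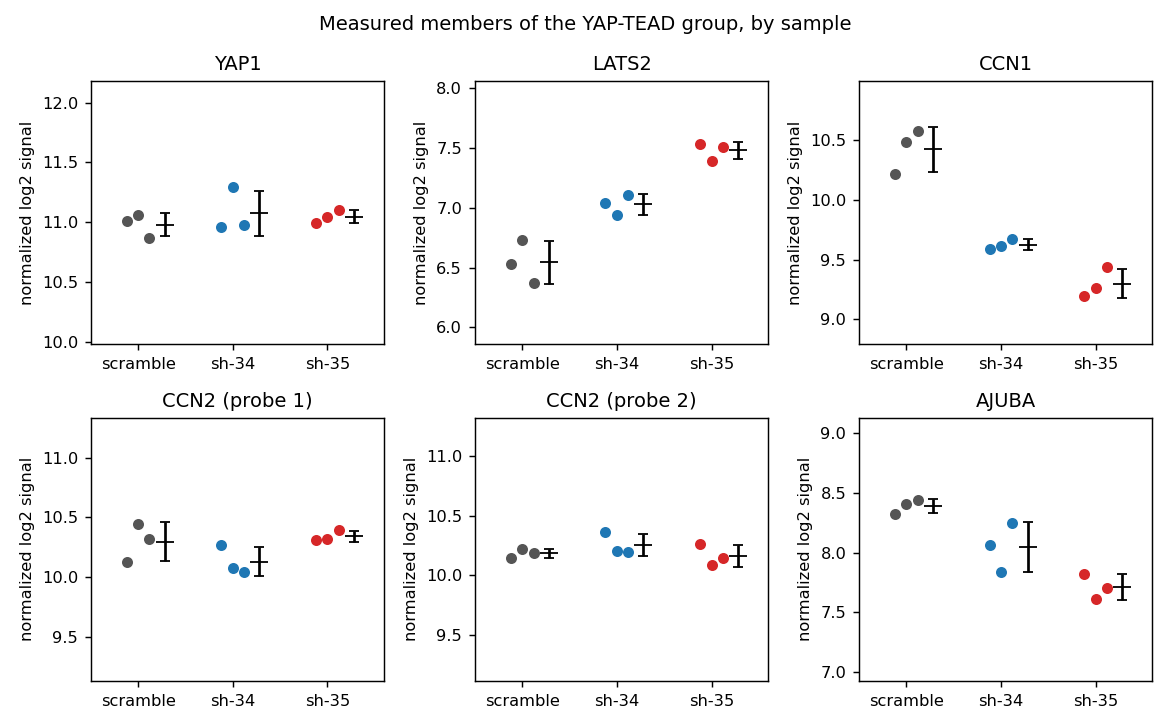
Normalized log2 signal of the 6 tested probes by sample (points, 3 per group), with the group mean and SD (black bar) beside them; each panel spans the same 2.2 log2 units. CCN1 and AJUBA step down and LATS2 steps up from scramble to sh-34 to sh-35. YAP1 and both CCN2 probes overlap between scramble and each hairpin, while on the brighter CCN2 probe the sh-34 points lie below the sh-35 points.

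LATS2 encodes the kinase that phosphorylates YAP and TAZ, and its gene is itself a reported target. Its deposited signals were 129, 125 and 101 in scramble, 154, 143 and 164 with sh-34, and 209.6, 211 and 216 with sh-35. The probe was above background on 1 of 3 scramble arrays and on all 6 hairpin arrays, and the 3 groups did not overlap. It therefore passed the filter only through the hairpin groups, which limits what its calls below can support. With no filter on dim probes both calls held, the sh-34 one with a limma adjusted p of 0.0166. LATS2 rose from 6.55 ± 0.18 (SD, n = 3) to 7.03 ± 0.09 with sh-34, or by +0.48 in log2 (SE 0.10; limma adjusted p = 0.0037). With sh-35 it rose to 7.48 ± 0.07, a log2 change of +0.93 (SE 0.10; adjusted p = 3.1e-05). The scramble level lies near the detection limit, where background correction sets the size of the change: without it the changes were +0.39 and +0.77, and both calls held. LATS1, the sister kinase, was above background on 0 arrays with either of its probes.

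AJUBA encodes a LIM-domain scaffold that binds LATS kinases at adherens junctions and restrains them. The brightest of its 3 probes read 383, 361 and 342 in scramble, 288, 242 and 329.6 with sh-34, and 249, 241 and 242 with sh-35. Both hairpin groups lay below scramble. With sh-35, AJUBA fell from 8.39 ± 0.06 (SD, n = 3) to 7.71 ± 0.11, which is 1.60-fold or −0.68 in log2 (SE 0.11; limma adjusted p = 0.00050). With sh-34 it fell to 8.05 ± 0.21, a log2 change of −0.34 (SE 0.11; adjusted p = 0.0296). The sh-34 call was lost when scramble replicate 2 or 3 or sh-34 replicate 1 or 2 was left out, with changes of −0.33, −0.32, −0.35 and −0.24 and adjusted p of up to 0.112, and again when dim probes were kept in (adjusted p = 0.105).

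The hairpins were also set against each other, a contrast of the 6 hairpin arrays in which the scramble arrays entered through the shared filter, normalization and estimate of spread. LATS2 was higher with sh-35 than with sh-34 by 0.45 on the log2 scale (SE 0.10; limma adjusted p = 0.0046), and the call held in each alternative that tested the probe. CCN1 differed by −0.33 (SE 0.11; adjusted p = 0.0299) and AJUBA by −0.33 (SE 0.11; adjusted p = 0.0299). These 2 calls were fragile. CCN1 lost it when any sh-34 replicate or sh-35 replicate 1 or 2 was left out (adjusted p of up to 0.0961), and AJUBA when sh-34 replicate 1 or 3 or sh-35 replicate 2 or 3 was left out (adjusted p of up to 0.119). With cyclic loess, CCN1 gave 0.0590 and AJUBA 0.0515, and with the series matrix values 0.120 and 0.194. With the scramble arrays left out of the fit, AJUBA gave 0.0506 and lost its call. Of the 6 tested probes 1 was called higher and 2 lower, beside 39.2% of all probes called, 19.1% higher and 20.1% lower, and the number called was 1 without sh-34 replicate 1, sh-34 replicate 3 or sh-35 replicate 2. YAP1 read −0.03 (adjusted p = 0.853), and CCN2 read +0.21 (adjusted p = 0.115) and −0.09 (adjusted p = 0.439).

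Among the paralogs of TEAD1, TEAD2 and TEAD4 could be measured. TEAD2 fell with sh-34 and TEAD4 rose with sh-35, while TEAD3 was above background on 0 arrays. TEAD2 went from 9.77 ± 0.17 (SD, n = 3) to 9.24 ± 0.06 with sh-34, or by −0.52 in log2 (SE 0.10; limma adjusted p = 0.0017), and to 10.09 ± 0.07 with sh-35, a change of +0.32 (SE 0.10; adjusted p = 0.0216). The sh-35 rise of TEAD2 was not past the threshold with median scaling, with the series matrix values, with dim probes kept in (adjusted p of up to 0.122) or without scramble replicate 1, sh-35 replicate 2 or sh-35 replicate 3 (up to 0.0860). TEAD4 read +0.13 with sh-34 (adjusted p = 0.314) and rose by +0.70 with sh-35 (SE 0.09; adjusted p = 0.00012). VGLL4, a cofactor that competes with YAP for TEAD proteins, read +0.25 and −0.09 and passed with neither hairpin. Over all genes tested, 36.1% passed with sh-34 (18.2% higher and 17.8% lower) and 40.3% with sh-35 (19.8% and 20.5%). Of the 4 tested genes of this list, YAP1 included, 0 rose and 1 fell with sh-34 (2 changed without sh-35 replicate 3), and 2 rose and 0 fell with sh-35 (1 without scramble replicate 1, sh-35 replicate 2 or sh-35 replicate 3).

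Among the Hippo kinases and their upstream inputs, a list that includes LATS2, most genes did not pass. Of 24 genes listed as kinases and upstream inputs, 16 were tested. With sh-34, 4 rose, 2 fell and 10 did not pass, with a median log2 change of +0.0482 beside +0.0216 over all 8931 genes, of which 18.2% rose and 17.8% fell. With sh-35, 3 rose, 2 fell and 11 did not pass, with a median of −0.00292 beside −0.0163, where 19.8% of all genes rose and 20.5% fell. The counts of 6 and 5 are near the background. They were 3 without scramble replicate 2 or sh-34 replicate 2 for sh-34, and for sh-35 they were 3 without scramble replicate 1, sh-35 replicate 1 or sh-35 replicate 3 and 2 without scramble replicate 3.

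Among those genes, STK4, which encodes the Hippo kinase MST1, fell with sh-34 by 0.48 on the log2 scale (SE 0.10; limma adjusted p = 0.0032) and read +0.04 with sh-35 (adjusted p = 0.786). The difference between the hairpins for STK4 was itself past the threshold, at +0.52 (SE 0.10; adjusted p = 0.0016). WWC3, of the KIBRA family that promotes LATS activity, read −0.23 with sh-34 (adjusted p = 0.0784) and rose by +0.81 with sh-35 (SE 0.09; adjusted p = 5.1e-05), and it differed between the hairpins by +1.04 (SE 0.09; adjusted p = 9.5e-06). Its relative WWC1, which encodes KIBRA, read +0.09 with sh-34 and fell by 0.32 with sh-35 (SE 0.10; adjusted p = 0.0244), a call lost without scramble replicate 3, sh-35 replicate 1 or sh-35 replicate 2 (adjusted p of up to 0.0996). STK3 and SAV1, which encode the other Hippo kinase and its scaffold and were named after their values were seen, did not pass with either hairpin, at +0.09 and −0.02 for STK3 and −0.09 and −0.06 for SAV1. FRMD6, a FERM-domain protein gene, read +0.37 and +0.28, and both calls were lost with median scaling and with the series matrix values. The sh-35 call was also lost without scramble replicate 1 or 3 or sh-35 replicate 2 or 3 (adjusted p of up to 0.0870). A second FRMD6 probe read +0.34 with sh-34 (limma adjusted p = 0.0193) and +0.14 with sh-35 (adjusted p = 0.291). Calls for MAP4K4 (+0.30), DLG5 (+0.39) and RASSF1 (−0.25) with sh-34 and for CSNK1D (−0.24) with sh-35 were each lost in at least 1 other setting and with several single arrays left out. A second MAP4K4 probe rose by +0.48 with sh-34 (limma adjusted p = 0.0023) and by +0.31 with sh-35 (adjusted p = 0.0213). RASSF6 read +0.06 and −0.29 and passed with neither hairpin.

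Junctional and LIM-domain partners, the list to which AJUBA and AMOTL2 belong, had 8 of 13 genes tested. With sh-34, 1 rose, 3 fell and 4 did not pass (median −0.00789), and with sh-35, 0 rose, 2 fell and 6 did not pass (median −0.0983). These stand beside the 36.1% and 40.3% of all genes called and the all-gene medians of +0.0216 and −0.0163. The sh-34 count of 4 was 2 when any 1 scramble replicate was left out and 1 without sh-34 replicate 1 or 2. SFN, which encodes an epithelial 14-3-3 protein (14-3-3 proteins hold phosphorylated YAP in the cytoplasm), fell by 0.55 on the log2 scale with sh-34 (SE 0.09; limma adjusted p = 0.00068) and by 0.67 with sh-35 (SE 0.09; adjusted p = 0.00013). Another 14-3-3 gene, YWHAQ, fell with sh-34 by 0.28 (SE 0.08; adjusted p = 0.0180), a call lost without scramble replicate 1 or 3 or sh-34 replicate 1 or 2 (adjusted p of up to 0.0566), and read −0.20 with sh-35 (adjusted p = 0.0642). WTIP, a LIM-domain gene of the AJUBA family, read +0.25 with sh-34 (adjusted p = 0.0454), a call lost in most alternatives, and +0.08 with sh-35. A second WTIP probe, above background on 6 arrays, read +0.06 with sh-34 and −0.46 with sh-35 (limma adjusted p = 0.819 and 0.0477). The 14-3-3 gene YWHAZ read +0.11 and +0.01, and CTNNA1, which encodes alpha-catenin, read +0.04 and −0.06, with no call. TJP1, which encodes the tight junction protein ZO-1, read −0.05 and −0.14. A second TJP1 probe read −0.14 with sh-34 and −0.30 with sh-35 (limma adjusted p = 0.306 and 0.0373). PTPN14, a phosphatase gene and reported YAP target, read +0.03 and +0.12.

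**Figure D3:**
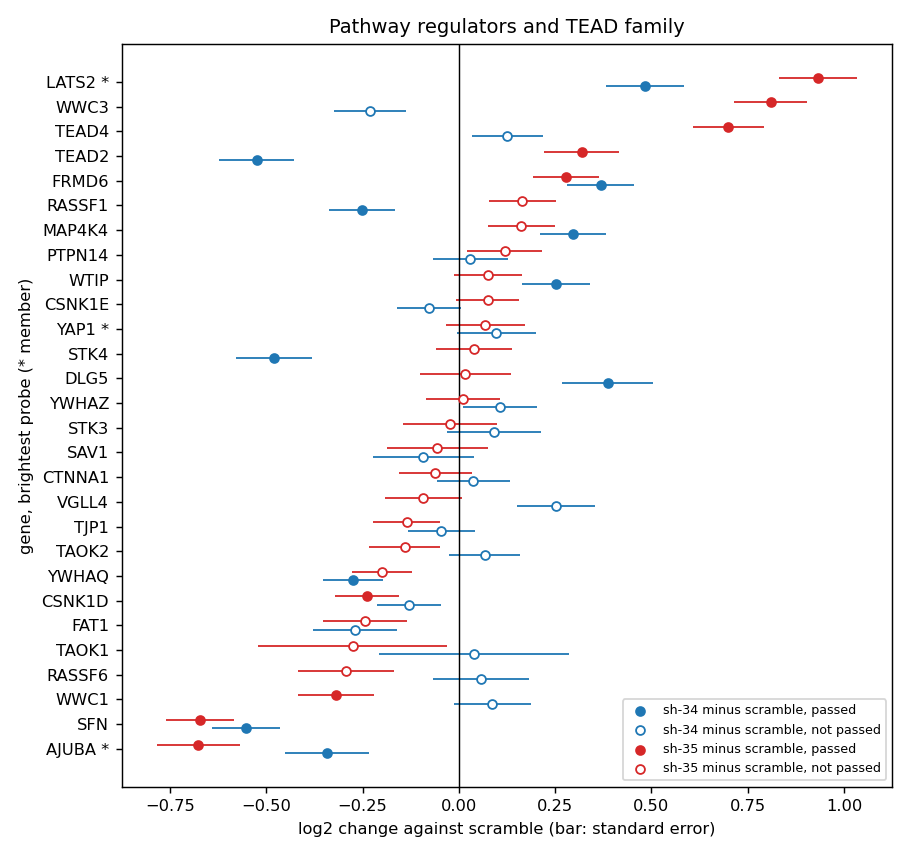
Log2 change against scramble for the tested regulators of the pathway, the TEAD family and junctional partners (brightest probe of each gene; bar, standard error; filled, adjusted p under 0.05; asterisk, 1 of the 9 genes chosen). LATS2 at +0.93 is the highest and AJUBA at −0.68 the lowest of the sh-35 values shown, and YAP1 lies near 0 with both hairpins.

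A conserved signature of 22 YAP-TAZ targets, which includes CCN1, CCN2, ANKRD1, AMOTL2 and LATS2, did not move in 1 direction. With sh-34, 5 of its 18 tested genes rose, 3 fell and 10 did not pass, and with sh-35, 6 rose, 3 fell and 9 did not pass. Between the hairpins 5 were higher with sh-35, 3 were lower and 10 did not pass, where 41.1% of all genes tested passed, 20.1% higher and 21% lower. This count of 8 was 5 without sh-34 replicate 3 or sh-35 replicate 2. Its median log2 change was +0.09 with sh-34 and +0.07 with sh-35 (+0.0296 and +0.0422 with genes undetected in a group at their bound or left out), beside +0.0216 and −0.0163 over all genes tested. Over all genes, 36.1% passed with sh-34 and 40.3% with sh-35, and the 8 and 9 of 18 here lie near that share. With only probes above background on all 9 arrays, the count was 4 with sh-34 and 6 with sh-35. With sh-34 these were the falls of CCN1, F3 and NUAK2 and the rise of FJX1. With sh-35 they were the same falls and the rises of FJX1, AXL and NT5E. The other sh-34 rises, of LATS2, FOXF2, ARHGEF17 and RBMS3, came from probes above background on fewer arrays. The ARHGEF17 call (limma adjusted p = 0.0473) was lost under several settings and with several single arrays left out. TGFB2, RBMS3 and LATS2, counted among the genes that rose, were tested only because the hairpin groups detected them.

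F3 and NUAK2 fell together with CCN1. F3, which encodes tissue factor, the starter of blood coagulation, fell with sh-34 by 0.57 (SE 0.09; limma adjusted p = 0.00072) and with sh-35 by 1.01 on the log2 scale (SE 0.09; adjusted p = 9.0e-06), and a second F3 probe gave −0.45 and −1.16. NUAK2, a kinase gene, fell by 1.19 (SE 0.11; adjusted p = 2.2e-05) and 0.80 (SE 0.11; adjusted p = 0.00024). Other signature genes rose. FJX1, a secreted regulator gene, read +0.53 with sh-34 (adjusted p = 0.0021) and +0.39 with sh-35 (adjusted p = 0.0092, lost with median scaling and with the series matrix values, where it was up to 0.144).

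AXL and NT5E passed with sh-35 and not with sh-34, and the hairpins were compared directly. AXL, a receptor tyrosine kinase gene, read +0.21 with sh-34 (limma adjusted p = 0.165) and rose by +0.84 with sh-35 (SE 0.11; adjusted p = 0.00013), a difference of +0.63 (SE 0.11; adjusted p = 0.00094). NT5E, which encodes the ecto-enzyme CD73, read −0.10 and rose by +0.53 (SE 0.11; adjusted p = 0.0021), a difference of +0.63 (SE 0.11; adjusted p = 0.00074). TGFB2, a growth factor gene, was above background on 0 scramble and 0 sh-34 arrays and on all 3 sh-35 arrays, and was at least 1.93-fold higher with sh-35 than with scramble and at least 2.00-fold higher than with sh-34. It entered the test only through the sh-35 arrays, so its call is no support for a rise. RBMS3, an RNA-binding protein gene, was above background on 0 scramble arrays and on 2 of 3 arrays with each hairpin, and was at least 1.06-fold higher with sh-34 than with scramble, having likewise entered through the hairpin arrays. FOXF2, a transcription factor gene, read +0.64 (adjusted p = 0.0115) with sh-34 and +0.15 with sh-35, and the difference of −0.49 (adjusted p = 0.0360) was lost under several settings and without sh-34 replicate 1 or 3 or sh-35 replicate 1 or 2 (adjusted p of up to 0.122).

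**Figure D4:**
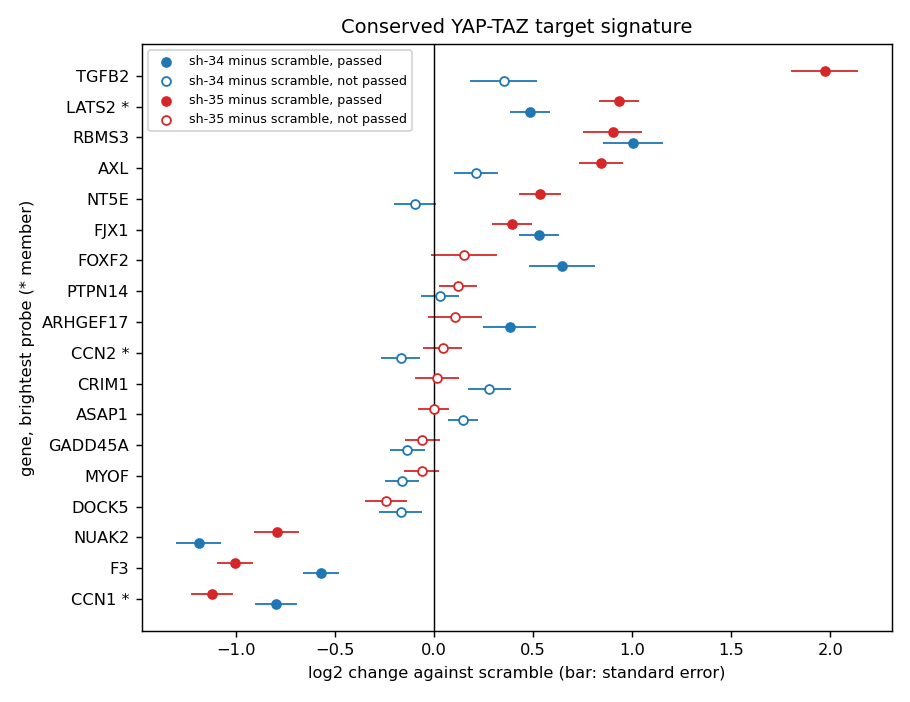
Log2 change against scramble for the 18 tested genes of the conserved YAP-TAZ target signature (brightest probe of each gene; bar, standard error; filled, adjusted p under 0.05; asterisk, 1 of the 9 genes chosen). CCN1, F3 and NUAK2 lie below 0 with both hairpins and LATS2 above it, while CCN2, MYOF, GADD45A and ASAP1 did not pass with either hairpin; TGFB2 and RBMS3 were below background in scramble, so their fitted values are not fold changes.

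Further reported targets, a list that includes AJUBA, moved in both directions. Of 12 genes, 7 were tested, and 3 rose and 4 fell with sh-34, while 4 rose, 2 fell and 1 did not pass with sh-35, beside 36.1% and 40.3% of all genes called. The sh-34 count of 7 was 3 without scramble replicate 2, scramble replicate 3 or sh-34 replicate 1, and 4 without sh-34 replicate 2. BIRC5 and AURKB, which also encode mitotic proteins, rose with sh-35 by +1.49 (SE 0.09; limma adjusted p = 4.8e-07) and +1.26 (SE 0.10; adjusted p = 3.6e-06). With sh-34 they read +0.25 (adjusted p = 0.0421) and +0.30 (adjusted p = 0.0367). Both sh-34 calls were lost under several settings and with several single arrays left out. THBS1, which encodes the matrix protein thrombospondin-1, fell with sh-34 by 0.51 (SE 0.10; adjusted p = 0.0032) and rose with sh-35 by +0.43 (SE 0.10; adjusted p = 0.0069), although the rise was not past the threshold with median scaling (adjusted p = 0.0856). COL8A1, a collagen gene, rose with both on its brightest probe, by +1.06 (SE 0.09; adjusted p = 1.2e-05) and +0.45 (SE 0.09; adjusted p = 0.0025). The other tested COL8A1 probes gave +0.93 and +1.16 with sh-34. With sh-35 those probes gave +0.11 (limma adjusted p = 0.514, not passed) and +0.25 (adjusted p = 0.0288). CCND1, which encodes cyclin D1, fell with sh-34 by 0.99 (SE 0.09; adjusted p = 1.1e-05) and read +0.09 with sh-35. The transcription factor gene MYC fell with sh-35 by 0.43 (SE 0.08; adjusted p = 0.0017). With sh-34 MYC read −0.26 (adjusted p = 0.0308), a call lost under some settings and with several single arrays left out. A second MYC probe gave −0.53 with sh-34 (limma adjusted p = 0.0080) and −0.54 with sh-35 (adjusted p = 0.0056).

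CCN1 and CCN2 belong to a family of 6 matricellular genes, of which CCN3 could also be measured. CCN3, whose protein is known in several settings to oppose CCN2, was above background on 0 scramble arrays, 2 sh-34 arrays and 3 sh-35 arrays. It was at least 1.18-fold higher with sh-34 and at least 1.71-fold higher with sh-35 than with scramble, and it entered the test only through the hairpin arrays. CCN4, CCN5 and CCN6 were above background on 0 arrays.

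CCN1, CCN2 and ANKRD1 are also reported targets of SRF and its actin-sensitive cofactors, the MRTF proteins. A list of 21 SRF-MRTF cytoskeletal genes was therefore counted beside the YAP-TAZ signature. It holds SRF, MRTFA and MRTFB themselves, so its counts are not of targets alone. With sh-34, 2 of the 18 tested genes rose, 6 fell and 10 did not pass (median −0.11), and 0 rose, 9 fell and 9 did not pass with sh-35 (median −0.28). Over all genes, 18.2% rose and 17.8% fell with sh-34 (median +0.0216), and 19.8% rose and 20.5% fell with sh-35 (median −0.0163). TAGLN, the transgelin gene, fell with both hairpins, with log2 changes of −0.53 with sh-34 (SE 0.09; limma adjusted p = 0.00084) and −3.34 with sh-35 (SE 0.09; adjusted p = 4.1e-09), and a second TAGLN probe gave −0.70 and −3.48. TAGLN2 fell too, at −0.42 and −0.52. CNN3, a calponin gene, rose by +0.52 with sh-34 and read −0.06 with sh-35, and TPM2, a tropomyosin gene, read +0.05 and fell by 0.56 with sh-35. ZYX, which encodes the focal adhesion protein zyxin, read +0.22 with sh-34 and −0.32 with sh-35 (adjusted p = 0.0223), a call lost without scramble replicate 2 or sh-35 replicate 1 or 2 (adjusted p of up to 0.0856). SRF itself read −0.34 with sh-34 (adjusted p = 0.0243), a call lost without scramble replicate 2 or 3 or sh-34 replicate 1 or 2 (adjusted p of up to 0.0959). It fell with sh-35 by 0.80 on the log2 scale (SE 0.10; limma adjusted p = 0.00010). MRTFA read −0.16 with sh-34 (adjusted p = 0.303) and −0.61 with sh-35 (adjusted p = 0.0015). MRTFB read −0.46 with sh-34 (adjusted p = 0.0148), a call lost without scramble replicate 1 or sh-34 replicate 3, and +0.03 with sh-35. TPM4, a tropomyosin gene, fell by 0.80 with sh-34 (SE 0.11; adjusted p = 0.00019) and by 1.04 with sh-35 (SE 0.11; adjusted p = 2.0e-05). MYL9, a myosin light chain gene, was above background on 0 sh-35 arrays and at least 2.28-fold lower there than in scramble. The same probe read −0.56 with sh-34 (limma adjusted p = 0.018), a call lost without scramble replicate 2 or sh-34 replicate 2. A second MYL9 probe was above background only on the 3 scramble arrays, through which it entered the test. It was at least 1.29-fold lower with sh-34 and at least 1.27-fold lower with sh-35. ACTA2, a smooth-muscle actin gene, rose with sh-34 by +0.73 (SE 0.09; adjusted p = 0.00011) and read +0.24 with sh-35. No test of a difference between this list and the YAP-TAZ signature was made.

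By Pearson's r over the 9 samples, the genes with the profiles most like CCN1 were ATP6V0B (0.982), SLC35A2 (0.982), RTKN (0.981), GABPB1 (0.981) and NAV1 (0.981). SLC35A2, a nucleotide sugar transporter gene, read −0.79 and −1.03 on the log2 scale with sh-34 and sh-35, and NAV1 read −0.75 and −1.12, close to the −0.80 and −1.12 of CCN1. The genes most like CCN2 were CNPY3 (0.932), RAPH1 (0.918), PGM2L1 (0.915), SLC71A2 (0.893) and FERMT2 (0.891). CCN1 and CCN2 had an r of 0.119 with each other. These are descriptions over samples that form 3 groups, so that any gene with the same order of group means scores high.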

How the data were processed

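Total RNA from 9 samples (3 scramble, 3 sh-34, 3 sh-35) was hybridised to Illumina bead arrays. The deposited table holds, per the file headers, a non-normalized signal intensity and a detection p-value for each probe and array. BeadStudio and Partek are named, without versions, per the submitters' processing notes. A second table of the authors holds the ratio to scramble and its p-value for 358 probes. A deposited series matrix holds log2 values, which were used as an alternative. The number of arrays limits the precision.

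Signals were background-corrected with normexp from the detection p-values (offset 16) and quantile-normalized in limma 3.58.1 (R 4.3.3). Probes with a detection p under 0.01 on at least 3 arrays were kept (12866 of 48803), and every probe of a gene was tested. Probe names came from the platform annotation, which gives 1 symbol to 28098 probes, several to 13 and none to 20692. One linear model over the 3 groups gave 3 comparisons, with empirical Bayes moderation and Benjamini-Hochberg adjustment over all probes. Lists were counted on the brightest probe of each gene (8931 genes). A bound ("at least N-fold") replaces the fold where no array of 1 group detected the probe, the dim group being set at the lowest signal above background of each array, or at the probe's own value where that was higher. The script was tested on simulated data.

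The genes and lists were chosen with earlier results of these data known. All 9 genes were named, as were up to 5 genes of each list with the smallest adjusted p in each comparison and the 5 genes most like CCN1 and CCN2. The other names given were chosen after their values were seen. Samples of different groups with the same replicate number had deviations that correlated at −0.0141 to 0.0590, so the numbers were not taken as pairs. The alternatives were 12 other settings and 9 fits that each left out 1 array.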

Additional observations from a re-analysis of the deposited data

Results flagged for a closer look

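By the test of sh-35 minus sh-34 on the log2 scale in limma, LATS2 differed by 0.45, CCN1 by −0.33 and AJUBA by −0.33, and among the regulator and target lists THBS1, by 0.94, and TEAD2, by 0.84, were called in opposite directions against scramble. Other genes described, such as STK4, WWC3, AXL and TAGLN, also passed this test. The differences of THBS1 (adjusted p = 4.2e-05) and TEAD2 (adjusted p = 5.3e-05) held in every alternative run, although their sh-35 rises were lost under some settings. The CCN1 and AJUBA differences were lost under several settings and with single arrays left out. The cause was not tested.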

How the results depend on the processing

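The CCN1 falls with both hairpins, the AJUBA fall with sh-35 and the LATS2 rises kept their direction and their call in every setting and leave-one-out fit that tested the probe. LATS2 was not tested when detection on all 9 arrays was required, and in the main setting it was tested only because the hairpin groups detected it. The number of the 6 tested probes that passed was 2 to 3 with sh-34 and 3 to 3 with sh-35 when single arrays were left out. For sh-35 minus sh-34 it was 3, with 1 to 3 when single arrays were left out, and 1 with cyclic loess, with median scaling, with the series matrix values and without the filter on dim probes.

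Signs turned for YAP1 and CCN2, which passed nowhere. YAP1 with sh-34 read −0.0149 with median scaling, −0.0176 with the series matrix values and, with single arrays left out, −0.0108 to 0.155. YAP1 with sh-35 read −0.0587 and −0.0221 with the same 2 settings, and YAP1 between hairpins read 0.00276 with cyclic loess and −0.0860 to 0.0800 with single arrays left out. The second CCN2 probe with sh-34 read −0.0127 with median scaling and −0.0160 with the series matrix values, and with sh-35 it read −0.0704 to 0.0207 with single arrays left out. The brighter CCN2 probe with sh-35 read −0.0639, −0.0265 and, with single arrays left out, −0.0416 to 0.116.

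List counts that moved by over 1.5 times were these. Hippo kinases and inputs gave 3 in place of 6 with sh-34 (median scaling, series matrix values, no filter) and 2 in place of 5 with sh-35 (no filter). Without the filter, junctional partners gave 1 in place of 4, other targets 3 in place of 7 and SRF-MRTF genes 5 in place of 8, all with sh-34. TEAD genes gave 2 in place of 1 with sh-34 (intensity trend) and 1 in place of 2 with sh-35 (median scaling, series matrix values, no filter). Detection on all 9 arrays gave 4 in place of 8 for the signature with sh-34 and 1 in place of 2 for the CCN family with either hairpin, since fewer genes were tested. The signature between hairpins gave 5 in place of 8 with detection on all 9 arrays and without the filter.

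With the replicate number as a block, 3, 3 and 3 of the 6 probes passed in the 3 comparisons, AJUBA with sh-34 had an adjusted p of 0.0299 in limma, and the other targets gave 4 in place of 7 with sh-34. Of all probes called with sh-34, 50.4% were higher, beside 40.0% with median scaling and 38.1% with the series matrix values. For sh-35 minus sh-34 these shares were 48.7% and, with the series matrix values, 60.8%. Apart from the fewer genes tested, the cause was not tested. WWTR1, TEAD1, ANKRD1, AMOTL2 and RND1 were near or below background, which limits what could be measured of them.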
